A study of Mus musculus with 12 samples.

Results

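A set of 10 genes of the MHC class II pathway was followed in mouse bone marrow cultures exposed to indole-3-propionic acid (IPA), a tryptophan metabolite made by gut bacteria. They were chosen by symbol, and are the 10 rows of the 54532 in the count table named H2-Aa, H2-Ab1, H2-Eb1, H2-DMa, H2-DMb1, H2-DMb2, H2-Oa, H2-Ob, Cd74 and Ciita. All 10 passed the filter on low counts that left 14894 genes to be tested. RNA was sequenced in 12 libraries of cultured bone marrow cells (C57BL/6, WT), grown in medium with GM-CSF and IL-6, cytokines that drive myeloid differentiation. Vehicle (0.1% DMSO), 10 µM IPA and 50 µM IPA make up the groups, with 4 libraries each, the medium with its additions was renewed on day 3 according to the labels, and cells were harvested on day 5. Whether the 4 libraries of a group came from separate mice or cultures is not stated, so p-values measure the spread between these libraries, which may be technical. The cells were not sorted before RNA was isolated, and in such a mixture fewer cells of a type and less RNA per cell cannot be told apart.

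MHC class II molecules are pairs of an alpha and a beta chain that hold peptides from the endosome on the cell surface for CD4+ T cells. Cd74, the invariant chain, fills the groove of new molecules and guides them to the endosome, where H2-DM exchanges its last fragment for peptides and H2-O restrains H2-DM. Transcription rests on Ciita, a coactivator that does not bind DNA itself and is recruited by RFX, CREB and NF-Y factors on the X and Y boxes of these promoters. The pathway is strong in dendritic cells, B cells and activated macrophages. C57BL/6 mice make I-A from H2-Aa and H2-Ab1 but lack a working H2-Ea chain, so H2-Eb1 has no partner for surface I-E.

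Depth lay between 20451312 and 28038612 counts per library. Of these counts, the 10 genes took 0.489% ± 0.0394 (SD, n = 4) with vehicle, 0.511% ± 0.0306 (SD, n = 4) at 10 µM and 0.426% ± 0.0300 (SD, n = 4) at 50 µM. Cells of the myeloid lineage dominated by their markers, with Lyz2, the macrophage and neutrophil lysozyme, at 5303 ± 313 CPM (counts relative to library size, scaled with edgeR's TMM method, SD, n = 4) in vehicle cultures. Cd3e, which defines T cells, was at 0.114 ± 0.0807 CPM (SD, n = 4) there. The libraries of a group differed from each other beyond sampling noise.

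The X and Y boxes are shown from promoters that RefSeq lists on GRCm38.p6, because they are the elements through which Ciita acts. Promoter windows, from 250 bases before to 50 bases after a start site, were found for 7 of the 10 genes. The letters GNAAC, with which the X boxes below begin, were searched upstream of ATTGG, the letters of the NF-Y site in the Y box, with the starts 20 to 45 bases apart. The letters were chosen after these promoters had been read. Of 32851 promoter windows of the mouse, 2.07% held such a pair on the strand of the gene and 4.23% on either strand. In the lines below, capitals mark GNAAC and ATTGG, and each sequence runs 5′ to 3′ on the strand of the gene.
H2-Aa (chr17:34287863-34287912, minus strand): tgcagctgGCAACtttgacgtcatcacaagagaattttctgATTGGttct
H2-Eb1 (chr17:34305768-34305816, plus strand): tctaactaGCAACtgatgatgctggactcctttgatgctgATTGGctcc
H2-DMb1 (chr17:34153089-34153138, plus strand): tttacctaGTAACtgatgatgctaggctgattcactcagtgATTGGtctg
H2-DMb2 (chr17:34145123-34145167, plus strand): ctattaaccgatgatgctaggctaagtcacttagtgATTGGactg
H2-Oa (chr17:34092295-34092344, plus strand): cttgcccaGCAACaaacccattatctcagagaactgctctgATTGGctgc
H2-Ob (chr17:34238810-34238856, plus strand): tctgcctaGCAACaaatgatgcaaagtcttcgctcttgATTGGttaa

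The pair was found in 5 of the 7 genes, H2-Aa, H2-Eb1, H2-DMb1, H2-Oa and H2-Ob. The starts of the boxes were 33 bases apart in H2-Aa, H2-DMb1 and H2-Oa, 32 in H2-Eb1 and 30 in H2-Ob. H2-DMb2 held ATTGG at position -90 without GNAAC at the searched distance. H2-DMa has 2 start sites, and ATTGG lay at -198 from the second with no pair at either. ATTGG or its complement CCAAT alone stood in 37.4% of all windows and GNAAC on either strand in 84.8%, so each alone is common. The pair is a match of letters and says nothing of binding in these cells. It was present both in H2-Aa and H2-Eb1, which fell at 50 µM, and in H2-Ob, which did not fall.

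**Figure D1:**
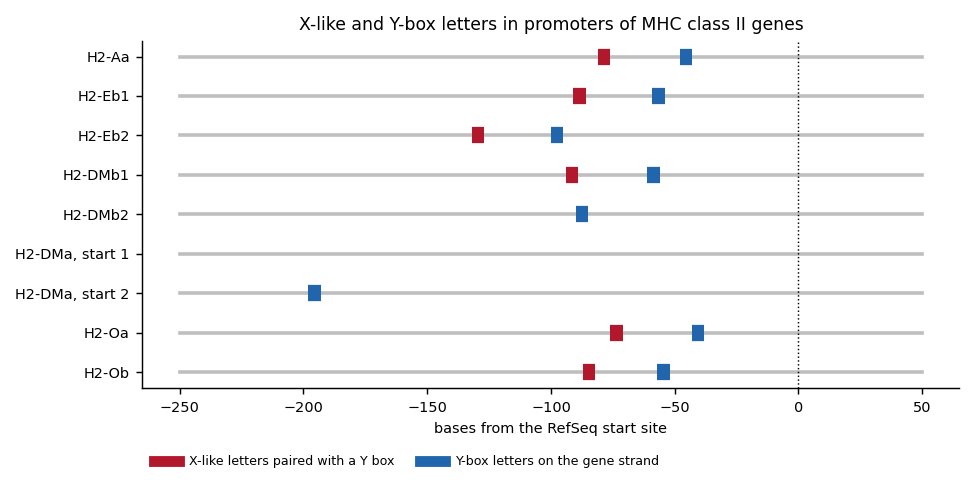
Positions of GNAAC paired with ATTGG (red) and of ATTGG (blue) on the strand of the gene, in bases from the RefSeq start site (dotted line), in windows from 250 bases before to 50 bases after it. H2-Eb2, a further class II gene, is drawn beside the 7 genes; in the windows with a pair, the boxes start 30 to 33 bases apart.

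Levels between genes were compared per length, as RPKM (CPM per kilobase of exon). In vehicle cultures Cd74 led with 1555 ± 142 RPKM (SD, n = 4). H2-Ab1 (252 ± 27.2 RPKM, SD, n = 4) and H2-Eb1 (251 ± 31.9, SD, n = 4) followed, and their ranges overlapped. H2-Aa came next with 178 ± 25.7 RPKM (SD, n = 4), below the range of both beta chains. Length here joins all annotated exons, 3798 bases for H2-Aa against 2568 for H2-Ab1 and 1944 for H2-Eb1. Without length H2-Aa had the highest mean, 674 CPM beside 647 for H2-Ab1 and 488 for H2-Eb1. Its place below the beta chains therefore rests on these lengths. The H2-DM chains were lower, with 64.9 ± 4.27 RPKM for H2-DMb1 and 64.9 ± 7.47 for H2-DMa, whose ranges overlapped, and 34.9 ± 3.26 for H2-DMb2 (SD, n = 4 each). H2-Oa (7.11 ± 0.796 RPKM) and Ciita (6.46 ± 1.33) overlapped, and H2-Ob was lowest with 1.22 ± 0.305 (SD, n = 4 each). The order was much the same at 50 µM, where H2-Eb1 (202 ± 12.4 RPKM, SD, n = 4) and H2-Ab1 (185 ± 21.4, SD, n = 4) again overlapped but H2-DMb1 (72.1 ± 4.80, SD, n = 4) lay above the range of H2-DMa (63.3 ± 4.40, SD, n = 4). H2-DMb1 and H2-DMb2 are near copies that share 369 words of 50 bases, so the split of counts between them is uncertain.

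The first question was whether 10 µM IPA altered the pathway. None of the 10 genes passed an adjusted p of 0.05 by edgeR's quasi-likelihood test against vehicle, where 0.41% of all genes did. The same count, 0, was found at an unadjusted p under 0.05 (8.78% of all genes), by DESeq2 (1.62%) and by limma-voom (0.423%). Log2 fold changes lay between -0.16 (H2-Oa) and 0.14 (H2-DMb2), with a median of 0.06 beside -0.01 over all genes. For H2-Ab1 the 95% interval of the change ran from -8.22% to 18.8% and for Cd74 from -5.45% to 20.1%, so a change within these bounds could not be told from none with 4 libraries a group. For no gene did the 4 libraries of one group lie outside the range of the other (6.12% of all genes). The signs of H2-Aa, H2-Eb1, H2-Ob and Ciita were not stable when 1 library was left out.

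At 50 µM the 3 classical chains, H2-Aa, H2-Ab1 and H2-Eb1, were lower than with vehicle, while no other gene of the pathway passed the test. That is 3 of 10 genes called beside 13.5% of all genes, and 3 of 10 lower beside 6.5%. The median log2 fold change of the 10 was -0.09, against 0.01 over all genes tested.

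H2-Ab1 (chromosome 17 of GRCm38, 34257689 to 34269419, plus strand), the beta chain of I-A, had the largest fall. Its level was 586, 587, 699.5 and 715 CPM in vehicle replicates 1 to 4, and 738, 688, 661 and 614 CPM in the 10 µM replicates. At 50 µM it was 502, 505, 503 and 394 CPM, so that every 50 µM library lay below every other library. Replicate 4 of the 50 µM group was lowest by a wide margin. The fall from vehicle to 50 µM was -26.0% (95% interval -36.3% to -14.2%), a log2 fold change of -0.44 (SE 0.10, adjusted p = 0.0114, edgeR). When each library was omitted in turn, all 8 fits kept the call, and the highest adjusted p was 0.0477.

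H2-Aa (chromosome 17, 34282744 to 34287823, minus strand) encodes the alpha chain that pairs with it. It was measured at 596, 594, 711 and 795 CPM with vehicle, at 733, 707, 709.7 and 647 CPM at 10 µM, and at 538, 544, 558 and 467 CPM at 50 µM. As for H2-Ab1, the 50 µM libraries were the 4 lowest of the 12. The log2 fold change from vehicle to 50 µM was -0.35 (SE 0.10, adjusted p = 0.0358, edgeR), or -21.5% (95% interval -32.4% to -8.71%).

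H2-Eb1 (chromosome 17, 34305867 to 34316674, plus strand) moved with them although its protein has no partner in this strain. Its levels were 446, 431, 510.3 and 566 CPM with vehicle, 524, 492, 497 and 456 CPM at 10 µM, and 394, 416, 399 and 359 CPM at 50 µM. Again the 50 µM libraries lay below all others. The log2 fold change was -0.31 (SE 0.09, adjusted p = 0.0407, edgeR), or -19.3% (95% interval -29.7% to -7.41%). H2-Ea-ps, the pseudogene of the missing chain, had 1 count in 1 vehicle library and 0 in the other 11.

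The calls of H2-Aa and H2-Eb1 rested on few libraries. When each library was omitted in turn, both passed in 3 of the 8 fits, namely those without replicate 1, 2 or 4 of the vehicle group. Without vehicle replicate 3, adjusted p was 0.111 for H2-Aa and 0.122 for H2-Eb1. Without replicates 1 to 4 of the 50 µM group, it was 0.0582, 0.0643, 0.0513 and 0.118 for H2-Aa and 0.0684, 0.0562, 0.0705 and 0.127 for H2-Eb1. Without vehicle replicate 4, in which the classical chains were highest and Ciita lowest of that group, 5 genes passed, with H2-DMb2 (adjusted p = 0.0218) and Ciita (0.0234) added. With replicate numbers as a block, H2-Ab1 remained below the threshold (adjusted p = 0.0224), whereas H2-Aa (0.0593) and H2-Eb1 (0.0720) did not and H2-Ob, higher at 50 µM, did (0.0480).

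**Figure D2:**
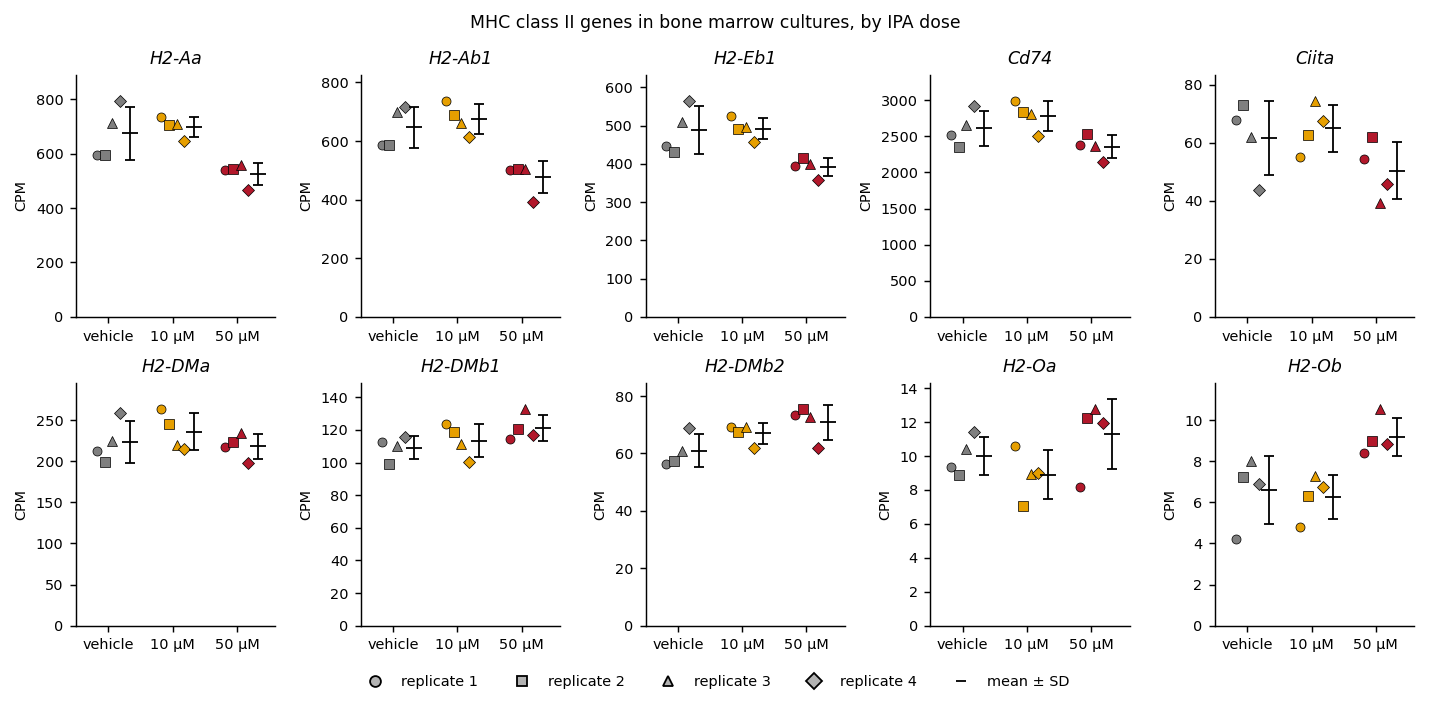
CPM of the 10 genes in each library, with the mean and SD of the 4 libraries of a group beside the points. The 50 µM libraries are the 4 lowest of the 12 for H2-Aa, H2-Ab1 and H2-Eb1 and the 4 highest for H2-Ob, and for the remaining 6 genes the 3 groups overlap.

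Cd74 (chromosome 18, 60803848 to 60812652, plus strand) did not follow the classical chains to the same extent. It stood at 2514, 2353, 2663 and 2915 CPM with vehicle, at 2995, 2832, 2804 and 2498 CPM at 10 µM, and at 2379, 2530.4, 2368 and 2147 CPM at 50 µM. The 50 µM libraries overlapped both other groups. Against vehicle the log2 fold change was -0.14 (SE 0.08, adjusted p = 0.291, edgeR), with a 95% interval from -19.8% to 2.55%.

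Ciita (chromosome 16, 10480059 to 10528418, plus strand), the coactivator, varied widely within groups. It was at 67.7, 72.9, 62.0 and 43.9 CPM with vehicle, at 55.1, 62.6, 74.5 and 67.5 CPM at 10 µM, and at 54.3, 61.9, 39.3 and 45.8 CPM at 50 µM. Vehicle replicate 4 lay within the range of the 50 µM group. The log2 fold change at 50 µM was -0.28 (SE 0.15, adjusted p = 0.261, edgeR), with a 95% interval from -34.8% to 3.69%, which includes both no change and a change as large as those of the classical chains. Ciita shares 329 exonic bases with Dexi on the opposite strand, and it is not stated whether counting used the strand.

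The chains of H2-DM, the peptide editor, were not lower at 50 µM than with vehicle by the test. H2-DMa (chromosome 17, 34119541 to 34139101, plus strand) was at 212, 199, 224 and 259 CPM with vehicle and at 217, 224, 234 and 198 CPM at 50 µM. Its log2 fold change was -0.03 (95% interval of the change -14.3% to 12.1%), and its sign turned without replicate 4 of either group (0.05 and 0.01). H2-DMa shares 360 exonic bases with Brd2 on the opposite strand. H2-DMb1 (chromosome 17, 34153072 to 34160230, plus strand) was at 112, 99.0, 109.8 and 115 CPM with vehicle and at 115, 121, 133 and 117 CPM at 50 µM (log2 fold change 0.16, adjusted p = 0.207, edgeR). H2-DMb2 (chromosome 17, 34143307 to 34151555, plus strand) was at 56.4, 57.5, 60.9 and 68.98 CPM with vehicle and at 73.4, 75.4, 72.8 and 61.9 CPM at 50 µM (log2 fold change 0.23, adjusted p = 0.119, edgeR). In both beta chains 3 of the 4 libraries at 50 µM were above all vehicle libraries.

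H2-O, the inhibitor of H2-DM, was the least abundant pair. H2-Ob (chromosome 17, 34238903 to 34254414, plus strand) was at 4.23, 7.24, 8.02 and 6.87 CPM with vehicle, at 4.78, 6.29, 7.26 and 6.73 CPM at 10 µM, and at 8.40, 8.97, 10.5 and 8.86 CPM at 50 µM. Each 50 µM library lay above all 8 others. Against vehicle the log2 fold change was 0.49 (SE 0.18) and missed the threshold (adjusted p = 0.0859, edgeR). H2-Oa (chromosome 17, 34092340 to 34095234, plus strand) was at 9.34, 8.91, 10.4 and 11.4 CPM with vehicle and at 8.20, 12.3, 12.8 and 12.0 CPM at 50 µM. Replicate 1 at 50 µM was below all vehicle libraries and the other 3 were above them, for a log2 fold change of 0.19 (adjusted p = 0.455, edgeR).

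Across the 10 genes, the groups did not overlap for 4 genes at 50 µM against vehicle, 3 lower (10.5% of all genes) and 1 higher (9.45% of all genes). The 3 are the classical chains and the 1 is H2-Ob. The same 4 genes separated the 50 µM from the 10 µM libraries (10.9% of all genes lower and 9.41% higher).

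The last question was whether the higher dose differed from the lower, a comparison that shares its 50 µM libraries with the one above. Here 4 genes were lower and 1 was higher at 50 µM, together 5 of 10 beside 15.4% of all genes. Lower calls made up 7.85% of all genes and higher calls 7.52%. The log2 fold changes were -0.50 for H2-Ab1 (SE 0.08, adjusted p = 0.000751, edgeR), -0.40 for H2-Aa (SE 0.07, adjusted p = 0.000802) and -0.33 for H2-Eb1 (SE 0.06, adjusted p = 0.00300). Each of these 3 passed whichever library was omitted (highest adjusted p 0.00377, 0.00428 and 0.0148). The falls amounted to -29.3% for H2-Ab1 (95% interval -37.5% to -20.1%), -24.4% for H2-Aa (-31.6% to -16.5%) and -20.2% for H2-Eb1 (-27.5% to -12.2%).

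Cd74 was also lower at 50 µM than at 10 µM, a change of -15.1% (95% interval -23.2% to -6.14%, log2 fold change -0.24, adjusted p = 0.0278, edgeR). It passed in 3 of the 8 fits and did not without replicates 1, 2 and 3 of the 10 µM group (adjusted p = 0.0765, 0.0804 and 0.0725) or replicates 1 and 4 of the 50 µM group (0.0510 and 0.105). H2-Ob was higher, with a log2 fold change of 0.56 (SE 0.15, adjusted p = 0.0172, edgeR), in all 8 such fits (at most 0.0484) but not with all 12 libraries in 1 fit (0.0509). Ciita, at -0.36, narrowly missed the threshold (adjusted p = 0.0549), and passed by DESeq2 (0.0333), without a filter (0.000409) and without replicate 1 of the 10 µM group (0.0209) or replicate 2 of the 50 µM group (0.0165). H2-Oa, at 0.35, did not pass (adjusted p = 0.145) except without replicate 1 of the 50 µM group (0.0352). The 3 H2-DM chains had log2 fold changes from -0.11 to 0.10 and did not pass.

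**Figure D3:**
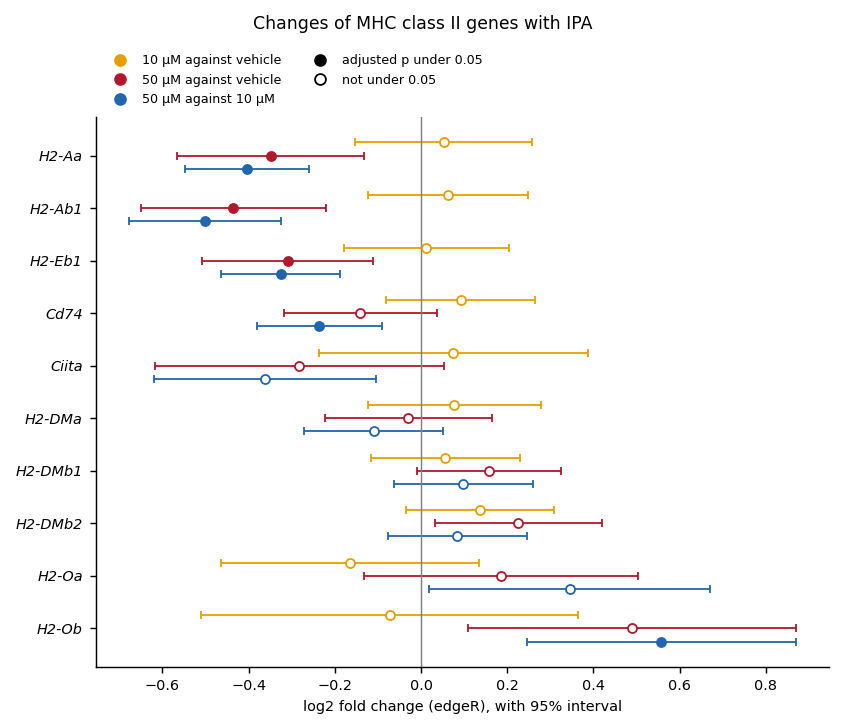
Log2 fold change of each gene with its 95% interval from edgeR, for the 3 comparisons between the groups, with filled points at an adjusted p under 0.05. The intervals of the 10 µM comparison all include 0, and those of H2-Aa, H2-Ab1 and H2-Eb1 lie below 0 in both comparisons of the 50 µM group.

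Ratios within a library show how the members moved relative to each other, free of the scaling between libraries. With 4 libraries against 4, the exact two-sided permutation test cannot give less than p = 0.0286, and adjusted over the 12 tests of 4 ratios no p fell under 0.0857. The log2 ratio of Cd74 to the summed classical chains was 0.53 ± 0.07 (SD, n = 4) with vehicle, 0.57 ± 0.02 at 10 µM and 0.76 ± 0.05 at 50 µM. All 50 µM libraries were above all others (exact permutation p = 0.0286, adjusted 0.0857, against either group), so the invariant chain was 1.17 times as abundant relative to them as with vehicle. The log2 ratio of H2-DMa to its beta chains differed by -0.21 from vehicle, again without overlap (exact permutation p = 0.0286, adjusted 0.0857). The ratio of H2-Aa to H2-Ab1 differed from vehicle by 0.10 at 50 µM and overlapped it (exact permutation p = 0.114, adjusted 0.196). The ratio of H2-DM to H2-O was lower by -0.24 at 50 µM than with vehicle and by -0.45 than at 10 µM, and overlapped in both cases (exact permutation p = 0.143 and 0.0571, adjusted 0.214 and 0.114).

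For 3 further ratios to the classical chains, chosen after those chains had been seen to be lower at 50 µM, the values are a description without a test. H2-DM had a log2 ratio of -2.20 ± 0.08 (SD, n = 4) with vehicle and -1.76 ± 0.06 at 50 µM, and H2-O one of -6.77 ± 0.12 and -6.09 ± 0.24 (SD, n = 4). Both ratios were higher in every 50 µM library than in every other library, and the lower level of the classical chains is part of both. The shift came to 1.35 times the vehicle ratio for H2-DM and 1.60 times for H2-O. The ratio of Ciita to the classical chains overlapped between the groups, with a difference of 0.08 from vehicle at 50 µM. In vehicle replicate 4 this ratio was lowest of all, at -5.56.

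**Figure D4:**
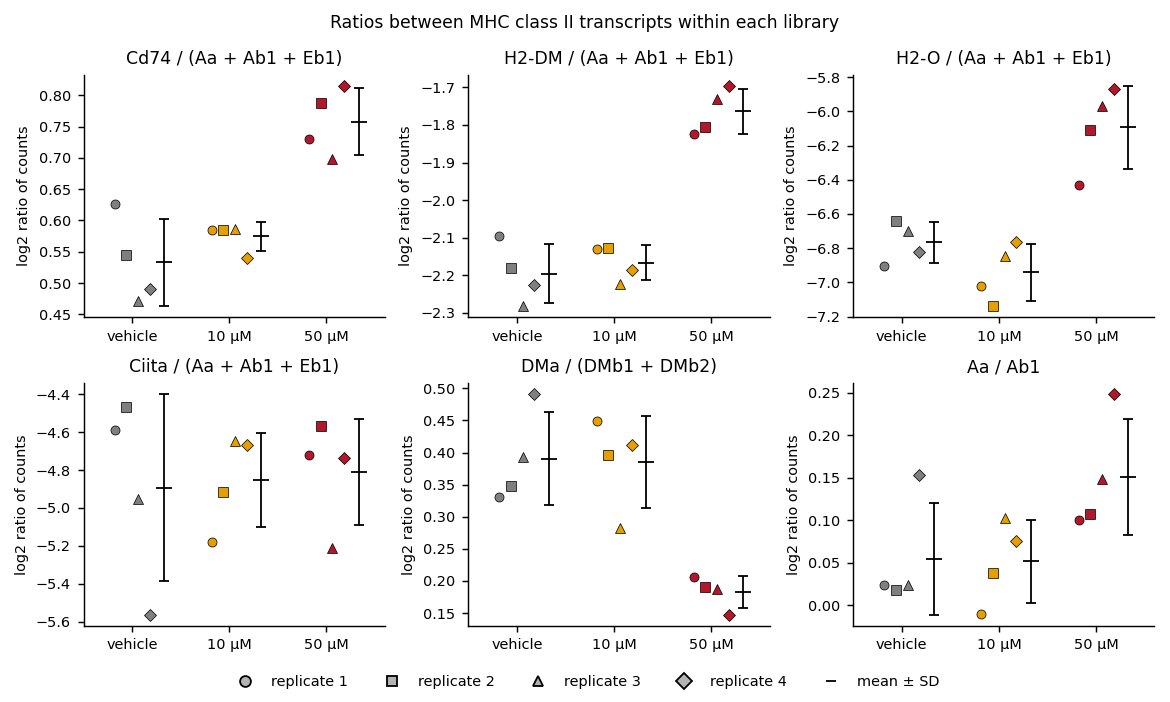
Log2 ratios of counts between class II genes in each library, with the mean and SD of a group's 4 libraries. The 50 µM libraries lie apart from all others for Cd74, H2-DM and H2-O over the classical chains (higher) and for H2-DMa over its beta chains (lower), and overlap the others for Ciita over the classical chains and for H2-Aa over H2-Ab1.

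The members that moved together were also compared across the 12 libraries, as a description, since libraries of a group share their treatment. Against the mean log2 CPM of H2-Aa, H2-Ab1, H2-Eb1 and Cd74 (or of the other 3 for these 4 genes), Pearson's r was between 0.93 and 0.99 for these 4 genes. It was 0.72 for H2-DMa, 0.25 for Ciita, 0.03 for H2-DMb2, -0.09 for H2-DMb1, -0.28 for H2-Oa and -0.53 for H2-Ob. After the mean of each group was taken off, r was 0.94 for H2-DMb2, 0.90 for H2-DMa, 0.65 for H2-DMb1, 0.30 for H2-Oa, 0.15 for H2-Ob and -0.46 for Ciita. The gene most like the 4, of the 12597 whose mean reached 1 CPM, was Cxcl16, a membrane-bound chemokine, with r = 0.98 both over the 12 libraries and after group means were taken off. Over the 12 libraries Sptlc1, Cyp4f16, Pcna and Gde1 came next, with r between 0.95 and 0.96.

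Among 20 genes of transcription factors and cofactors of MHC promoters, none passed at 10 µM (0.41% of all genes did). At 50 µM 2 of them were higher (7% of all genes) and 2 lower (6.5%) than with vehicle. Irf4 (log2 fold change 0.52, adjusted p = 0.000639, edgeR) and Irf8 (0.40, adjusted p = 0.00142), both regulators of dendritic cell fate, rose. The NF-Y subunit gene Nfyc (-0.37, adjusted p = 0.00632) and Creb1 (-0.23, adjusted p = 0.0381) fell, and Creb1 did not pass in 6 of the 8 fits without 1 library (adjusted p up to 0.102). The RFX complex genes did not pass, with log2 fold changes of 0.24 for Rfx5, 0.02 for Rfxank and -0.32 for Rfxap (adjusted p = 0.273, 0.944 and 0.0750). Of 21 tested genes of interferon gamma signalling and its targets, which include the main inducer of Ciita in macrophages, 3 were higher and 1 was lower at 50 µM, together 4 of 21 beside 13.5% of all genes. Of the 3, Gbp4 lost its call in 4 of the 8 fits without 1 library (adjusted p up to 0.0688, edgeR) and Jak2 in 1. Cd274, the ligand of PD-1, rose (0.48, adjusted p = 0.00655) and Socs3, a feedback inhibitor of cytokine receptors, fell (-0.64, adjusted p = 0.000103).

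Of 12 genes that supply peptides, 3 were higher (7% of all genes) and none lower (6.5%) at 50 µM than with vehicle. Ctsl, cathepsin L, which degrades the invariant chain in thymic epithelium, had log2 fold changes of 0.80 at 10 µM (adjusted p = 0.0102, edgeR) and 1.17 at 50 µM (adjusted p = 1.54e-05). Lgmn, the asparagine endopeptidase, rose by 0.76 at 50 µM on the log2 scale (adjusted p = 0.000755) and Ctsd by 0.41 (adjusted p = 0.00720). Ctss, the cathepsin that makes the last cut of the invariant chain in antigen-presenting cells of bone marrow origin, did not pass against vehicle (-0.19, adjusted p = 0.245) and was lower at 50 µM than at 10 µM (-0.53, adjusted p = 3.5e-05). At 10 µM Ctsl passed in 6 of the 8 fits without 1 library, with an adjusted p up to 0.0705.

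Of 12 tested genes of class II traffic and turnover, 3 were higher (7% of all genes) and 1 was lower (6.5%) at 50 µM. Of the 3, Lamp1 lost its call in 7 of the 8 fits without 1 library and Rab7 in 1. Cd83, which protects surface class II from ubiquitination, rose (0.95, adjusted p = 8.4e-05, edgeR), and Rab27a fell (-0.43, adjusted p = 0.00451). The ubiquitin ligase gene March1, which drives class II turnover, had a log2 fold change of -0.06 (adjusted p = 0.715) and March8 one of -0.12 (adjusted p = 0.335). Of 7 costimulation genes, Cd80, Cd83 and Tnfsf4 were higher (7% of all genes) and none was lower (6.5%), and Cd80 lost its call in 5 of the 8 fits without 1 library (adjusted p up to 0.128). H2-Eb2, a further class II beta chain gene, was at 1.90 ± 0.554 CPM with vehicle, 2.93 ± 0.427 at 10 µM and 2.48 ± 0.854 at 50 µM (SD, n = 4 each) and did not pass in any comparison.

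Markers of cells that carry class II, and of neutrophils, were set beside these values. The 15 dendritic cell markers summed to 1775 to 1951 CPM in vehicle libraries, 1846 to 2283 CPM at 10 µM and 2579 to 3214 CPM at 50 µM, and 9 of them were higher (7% of all genes) and none lower (6.5%) at 50 µM than with vehicle. Zbtb46 lost its call in 5 of the 8 fits without 1 library, Clec9a in 4 and Ccr7 in 2. The 17 B cell markers summed to 80.8 to 98.3, 99.6 to 122 and 124 to 180.2 CPM, with 11 of the 15 tested higher at 50 µM, of which Fcrla lost its call in 4 of these fits. The 9 macrophage markers summed to 835 to 1012, 1138 to 1272 and 1046 to 1091 CPM, with Apoe and Mrc1 lower and Adgre1 higher at 50 µM than with vehicle. At 50 µM against 10 µM, the comparison in which the classical chains fell most, 6 of the 9 macrophage markers were lower (Apoe, C1qa, C1qb, C1qc, Mertk and Mrc1, beside 7.85% of all genes) and Adgre1 was higher, with C1qb losing its call in 4 and C1qc in 1 of the 8 fits without 1 library. In the same comparison 6 dendritic cell markers and 8 B cell markers were higher (7.52% of all genes) and none was lower, with Clec10a and Fcer2a each losing the call in 7 of these fits and Ms4a1 in 2. At 10 µM against vehicle 3 macrophage markers and 2 dendritic cell markers were higher, none was lower (0.41% of all genes passed in either direction), and each of the 5 kept its call in at most 2 of the 8 fits. The 7 neutrophil markers summed to 12018, 12378, 15605 and 17826 CPM in vehicle replicates 1 to 4, 12359 to 13613 CPM at 10 µM and 9838 to 14168 CPM at 50 µM, so that vehicle replicates 3 and 4, in which the classical chains were highest, also stood highest here. Of these 7, Cxcr2 (log2 fold change -0.79, adjusted p = 0.000605, edgeR) and Csf3r (-0.36, adjusted p = 0.0279) were lower at 50 µM than with vehicle, Csf3r in 4 of the 8 fits without 1 library, and none was higher. Among 5 general myeloid markers, Csf1r, the M-CSF receptor, was lower (-0.34, adjusted p = 0.00769) and Itgam (0.31, adjusted p = 0.00893) and Lyz2 (0.39, adjusted p = 0.0102) were higher. No marker of these 5 lists was at 0 in all libraries. The 10 class II genes summed to 4409 to 5497, 4676 to 5517 and 3810 to 4499 CPM, so the 50 µM libraries overlapped those with vehicle and lay below those at 10 µM. The part of these cells in the results was not tested.

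**Figure D5:**
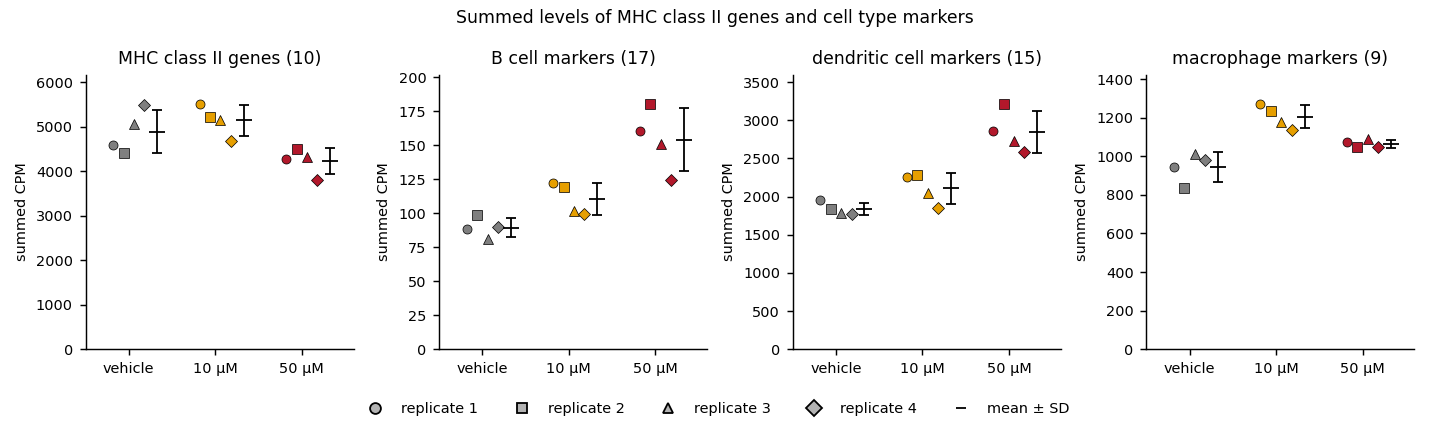
Summed CPM in each library of the 10 MHC class II genes and of the markers of B cells, dendritic cells and macrophages, with the mean and SD of a group's 4 libraries. The dendritic cell sum lies between 2579 and 3214 CPM at 50 µM, above all vehicle and 10 µM libraries, while the class II sum at 50 µM overlaps that with vehicle and lies below that at 10 µM.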

How the data were processed

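The authors aligned stranded mRNA reads of the 12 libraries with HISAT2 (2.2.1) to mm10 (GRCm38.p6) and assigned them to Ensembl genes with featureCounts (2.0.1), as stated in the paper's methods and the submitters' processing notes. The deposited values are raw counts per gene, not normalized or filtered, and the strand setting is not given in the sources used here. The labels gave groups and replicate numbers. The title of replicate 3 at 10 µM repeats that of replicate 2, so its library name was used.

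Genes above 0.5 CPM in at least 2 of the 12 libraries were tested (14894). Each of 3 comparisons used its 8 libraries without a block, with edgeR 4.0.16 (TMM, glmQLFit, glmQLFTest) in R 4.3.3 and Benjamini-Hochberg adjustment over all genes tested, at a threshold of 0.05. CPM in the text are TMM-scaled over the 12 libraries, and RPKM use exon lengths of GENCODE M21. On simulated counts, edgeR found 147 of 200 changed genes and called 12 unchanged ones. Whether fold changes as small as those of the class II genes are found as often was not tested. Ratios of summed counts (0.5 added) were compared with exact permutation tests for 4 ratios, and 3 further ratios were described only.

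Alternatives were DESeq2 1.42.0, limma-voom (limma 3.58.1), DESeq2's size factors, no filter, at least 10 counts, the filter on the 8 libraries compared, all 12 libraries, the replicate block, 2 counts added to ratios, and leaving out each library. Same-numbered libraries of different groups had deviations correlated between -0.24 and 0.14, over 0.1 in 2 of 12 pairs. These values cannot tell whether same-numbered libraries share a mouse or culture. Members, lists, named genes (the 10 members in full, list genes past the threshold or central to the pathway) and tests were chosen with earlier results of these data known. Promoter sequences are those of RefSeq on GRCm38.p6.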

Additional observations from a re-analysis of the deposited data

Results flagged for a closer look

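In 51 sets of 4 libraries checked, Dixon's test set a single library apart from the other 3 in 3 of them, and chance does so for about 1 in 20 sets. H2-Ab1 was at 394 CPM in replicate 4 of the 50 µM group, against 502 to 505 CPM in the other 3. The log2 ratio of H2-Aa to H2-Ab1 was 0.154 in vehicle replicate 4, against 0.0182 to 0.0238 in the other vehicle libraries. The log2 ratio of Cd74 to the summed classical chains was 0.541 in replicate 4 of the 10 µM group, against 0.585 to 0.586 in the others.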

How the results depend on the processing

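Leaving out 1 library at a time moved the number of the 10 genes called at 50 µM against vehicle between 1 and 5 (3 with all 8), and at 50 µM against 10 µM between 4 and 6 (5 with all), while at 10 µM it was 0 in all 8 fits. At 10 µM the sign turned in some of these fits for H2-Aa (-0.0048 to 0.14 on the log2 scale), H2-Eb1 (-0.044 to 0.091), H2-Ob (-0.23 to 0.041) and Ciita (-0.058 to 0.17), and at 50 µM against vehicle for H2-DMa (-0.0885 to 0.05005). None of these was called. Under DESeq2, limma-voom, DESeq2's size factors, at least 10 counts, no filter, the filter on 8 libraries, all 12 libraries and the replicate block, all 30 fold changes of the 10 genes kept their direction. With the replicate block 2 genes were called at 50 µM against vehicle (H2-Ab1 and H2-Ob) and 5 at 50 µM against 10 µM, and the block changed no other call of the 10 genes. No library correlated best with its own number in both other groups. In that paired fit the ratio of Cd74 to the classical chains differed from vehicle by 0.22 on the log2 scale at 50 µM (sign-flip p adjusted 0.188, too few pairs to pass). Over all genes, 61 were called at 10 µM against vehicle by edgeR, 242 by DESeq2, 150 without a filter, 118 with all 12 libraries and 3 with the block, and between 4 and 122 with 1 library left out. The cause was not tested. With 4 libraries a group, no ratio passed after adjustment, and for Ciita, H2-Oa and H2-Ob, whose counts were low or varied most, the intervals were widest.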
